A study of Mus musculus with 7 samples.

Results

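Amino acid transporters of the solute carrier families Slc1, Slc3, Slc6, Slc7, Slc36, Slc38 and Slc43 were examined in mouse prostate tumours after a short drug treatment. They were chosen by gene symbol alone: every probe of the array table whose platform symbol named a numbered member of these families was taken. This gave 116 of 45128 probes and 55 of the 19026 genes with a symbol. A probe was called detected, or above background, on an array where it lay above the upper 0.05 tail of the estimated background there, and it passed the filter when detected on at least 3 arrays. By this rule 47 of the 116 probes (40.5%) passed, against 47.1% of all probes, and 30 of the 55 genes had such a probe, 20 of them detected on all 7 arrays. All values below are normalized log2 intensities, which may be compared between tumours but not between genes.

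The RAPPD group held 4 tumours and the vehicle group 3, each measured on 1 Illumina bead array. All were NPK tumours grown as allografts in athymic nude mice (NU/J), which lack a functional thymus and so most T cells. The mice received RAPPD or vehicle daily for 5 days, with tumours taken on the fifth day. RAPPD is not spelled out in the labels. In the published work on this model it stands for rapamycin, which inhibits the kinase complex mTORC1, combined with an inhibitor of MEK. NPK is the name of the mouse prostate tumour model, and the alleles behind it are not described here. Both groups are of this model, and the labels do not say how many donor tumours or mice lie behind them. Ages are not stated.

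The arrays sat on 3 chips. Vehicle 3 shared its chip with all 4 RAPPD tumours, while vehicle 1 and vehicle 2 were each alone on another. A fit with chip as a fixed block, named the chip-block fit here, therefore sets vehicle 3 alone against the RAPPD tumours. Its spread comes from the RAPPD tumours only, so its p-values hold no variation between vehicle tumours. Vehicle 2 stood apart in skeletal muscle markers, whose summed intensity was 70061 there and 82 to 283 in each of the other 6 tumours.

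Amino acid transporters set how fast a growing cell can import the building blocks of protein, nucleotides and glutathione. Uptake and export at the plasma membrane feed mTORC1, and carriers in the lysosome membrane release amino acids and report their level to it. The transcription factor ATF4 is raised by amino acid shortage and by active mTORC1, and it is known to drive several of these carriers, Slc7a11, Slc3a2 and Slc1a4 among them.

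Short promoter stretches of 3 members are shown because they hold letters that match sites of factors named above. Capitals in the first 2 mark the core of the C/EBP-ATF response element, TGATGNAA, or the same core read on the other strand, TTNCATCA. Capitals in the third mark the E-box CACGTG, a core bound by basic helix-loop-helix factors such as MYC and TFEB. Each runs 5′ to 3′ on the gene's strand, from 60 bases (80 for Slc7a11) before the RefSeq start to 10 bases into the transcript, in build GRCm38.p6.
Slc1a4 (chr11:20332704-20332773, minus strand): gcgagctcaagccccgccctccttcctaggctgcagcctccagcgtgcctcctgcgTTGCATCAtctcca
Slc7a11 (chr3:50443604-50443693, minus strand): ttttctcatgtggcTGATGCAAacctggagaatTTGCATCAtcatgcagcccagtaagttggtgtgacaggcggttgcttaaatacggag
Slc36a1 (chr11:55204280-55204349, plus strand): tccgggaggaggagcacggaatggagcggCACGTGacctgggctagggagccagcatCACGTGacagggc

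Of the 30 tested transporter genes, 20 matched a RefSeq promoter window reaching from 250 bases before to 50 after a start. The response element core lay in a window of 3 of these 20 genes (15.0%), Slc1a4, Slc7a7 and Slc7a11, against 4.51% of all 27025 genes with a window. The E-box lay in 5 (25.0%), Slc36a1, Slc1a6, Slc1a7, Slc38a7 and Slc43a1, against 8.09% of all genes. Some genes have several windows, which can raise a share counted by gene. Counted by window, the response element core lay in 12.1% of 33, against 3.97% of all 32851. The E-box lay in 15.2% of the 33, against 7.15%. Among 19 transporter genes with a window but no probe past the filter, 5.26% held the core and 15.8% the E-box. Slc36a1 held 2 copies of the E-box. The windows of Slc6a9, the glycine carrier described next, held neither. These matches describe letters in a window and do not show that a factor binds there.

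RAPPD tumours had lower levels of 3 transporter genes and higher levels of 2 at an adjusted p under 0.05. Lower were the glycine carrier Slc6a9, the cationic amino acid carrier Slc7a3 and the alanine, serine and cysteine exchanger Slc1a4, while the cationic carrier Slc7a2 and the lysosomal proton-coupled carrier Slc36a1 were higher. The test was limma, fitted to all 11085 genes with a probe past the filter and adjusted over all of them by the Benjamini-Hochberg method. It called 13.1% of all genes lower and 11% higher, or 24.1% in either direction. The 5 called transporters were 16.7% of the 30 tested, so the families as a whole did not stand out from the rest of the array. The median difference over the 30 was 0.02 on the log2 scale, with 15 above and 15 below 0, against -0.01 over all genes. RAPPD and vehicle values did not overlap for 7 of the 30 (23.3%), against 34.7% of all genes. The 7 include Slc6a19, and the 15 above 0 include Slc6a19 and Slc6a17. Both genes passed the filter only through RAPPD arrays.

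**Figure D1:**
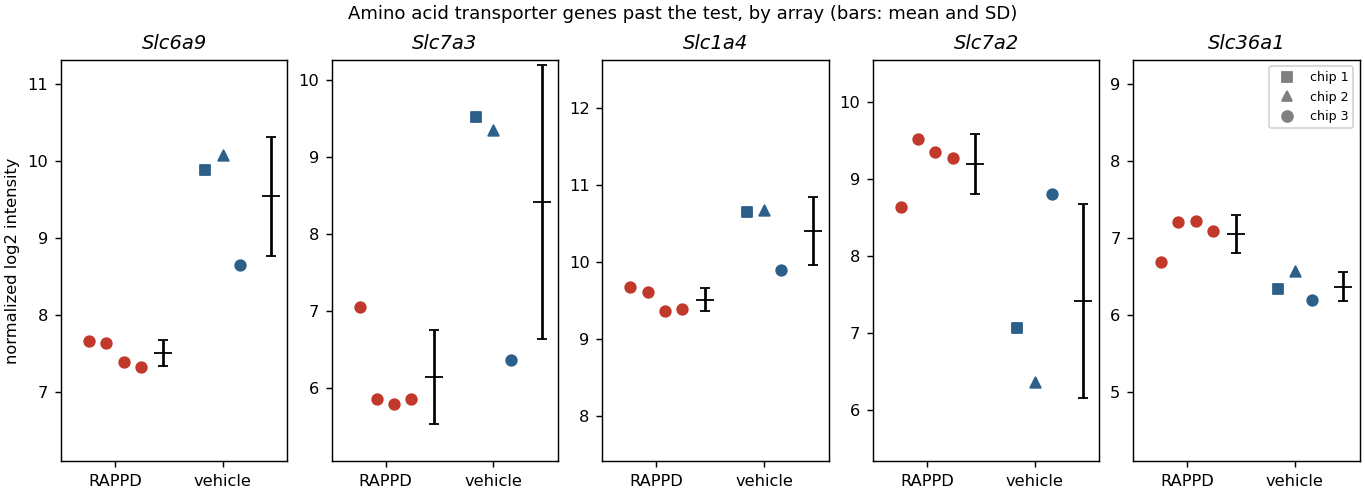
Normalized log2 intensity of the 5 called transporter genes on each array, RAPPD tumours left and vehicle tumours right, with marker shape for the chip and bars for the mean and SD (n = 4 and 3). Slc6a9, Slc1a4 and Slc36a1 separate the groups completely, whereas vehicle 3 (blue circle) lies among the RAPPD values of Slc7a3 and Slc7a2.

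Slc6a9 encodes GlyT1, which imports glycine together with sodium and chloride. It stood at 7.66, 7.64, 7.39 and 7.33 on the log2 scale in RAPPD 1 to 4, against 9.88, 10.08 and 8.65 in vehicle 1 to 3. All RAPPD tumours lay below all vehicle tumours, and vehicle 3 was the lowest of the vehicle tumours. The difference was -2.03 ± 0.32 (SE, limma adjusted p = 0.00301), which is 4.09-fold lower. This was the one called transporter that passed the test in each of the 18 other settings tried. Among them was the chip-block fit, whose p-value holds no spread between vehicle tumours.

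The chip-block fit called 5.94% of all genes lower and 3.42% higher. In that fit Slc6a9 was lower by a smaller amount (-1.14). It called 1 transporter lower and 0 higher by limma, where 4 and 2 had an unadjusted p under 0.05.

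Slc1a4, the exchanger whose promoter stretch is shown above, stood at 9.67, 9.61, 9.37 and 9.39 in RAPPD 1 to 4, against 10.65, 10.67 and 9.90 in vehicle 1 to 3. The groups did not overlap, with vehicle 3 again nearest to the RAPPD tumours. The difference was -0.89 ± 0.22 (adjusted p = 0.0190), or 1.86-fold lower. Against vehicle 3 alone it was -0.39 ± 0.21 (adjusted p = 0.284), and the call was also lost without vehicle 1, vehicle 2, RAPPD 3 or RAPPD 4 (-0.85 to -0.76, adjusted p 0.0520 to 0.0764).

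Slc7a3 and Slc7a2 both carry arginine, lysine and ornithine, and they differed in opposite directions. Slc7a3 stood at 7.05, 5.86, 5.79 and 5.86 in RAPPD 1 to 4, against 9.52, 9.35 and 6.37 in vehicle 1 to 3. Vehicle 1 and 2 were far above every RAPPD tumour, but vehicle 3 lay below RAPPD 1, so the groups overlapped. The difference of -2.28 ± 0.72 only just passed the test (adjusted p = 0.0494). It was -3.30 without vehicle 3 (adjusted p = 0.00134) and -0.23 ± 0.51 in the chip-block fit (adjusted p = 0.799). The call was lost without vehicle 1, vehicle 2, RAPPD 2, RAPPD 3 or RAPPD 4 (adjusted p 0.105 to 0.170).

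Slc7a2, which brings arginine into many cells including activated macrophages, stood at 8.63, 9.52, 9.35 and 9.27 in RAPPD 1 to 4, against 7.07, 6.36 and 8.80 in vehicle 1 to 3. Here vehicle 3 was higher than RAPPD 1, and the groups overlapped. The difference was 1.78 ± 0.51 (adjusted p = 0.0350), or 3.44-fold higher, and the gene's other probe past the filter gave 0.81. Without vehicle 3 it was 2.48 (adjusted p = 0.00182), whereas in the chip-block fit it was 0.39 ± 0.36 (adjusted p = 0.512). The call was lost without vehicle 1, vehicle 2, RAPPD 2, RAPPD 3 or RAPPD 4 (adjusted p 0.0761 to 0.119).

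Slc36a1 moves small neutral amino acids such as proline, alanine and glycine with protons, and sits in lysosomes in many cells. It stood at 6.68, 7.20, 7.22 and 7.09 in RAPPD 1 to 4, against 6.34, 6.57 and 6.19 in vehicle 1 to 3. Every RAPPD tumour was above every vehicle tumour, by a small margin between RAPPD 1 and vehicle 2. The difference was 0.68 ± 0.19 (adjusted p = 0.0290), or 1.61-fold higher. Its size did not fall in the chip-block fit (0.86 ± 0.26), although that fit did not call it (adjusted p = 0.0977). Leaving out vehicle 1, vehicle 3, RAPPD 2, RAPPD 3 or RAPPD 4 also ended the call at a similar size (0.60 to 0.67, adjusted p 0.0683 to 0.0859), and the submitters' processed values gave 0.17 (adjusted p = 0.0503).

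**Figure D2:**
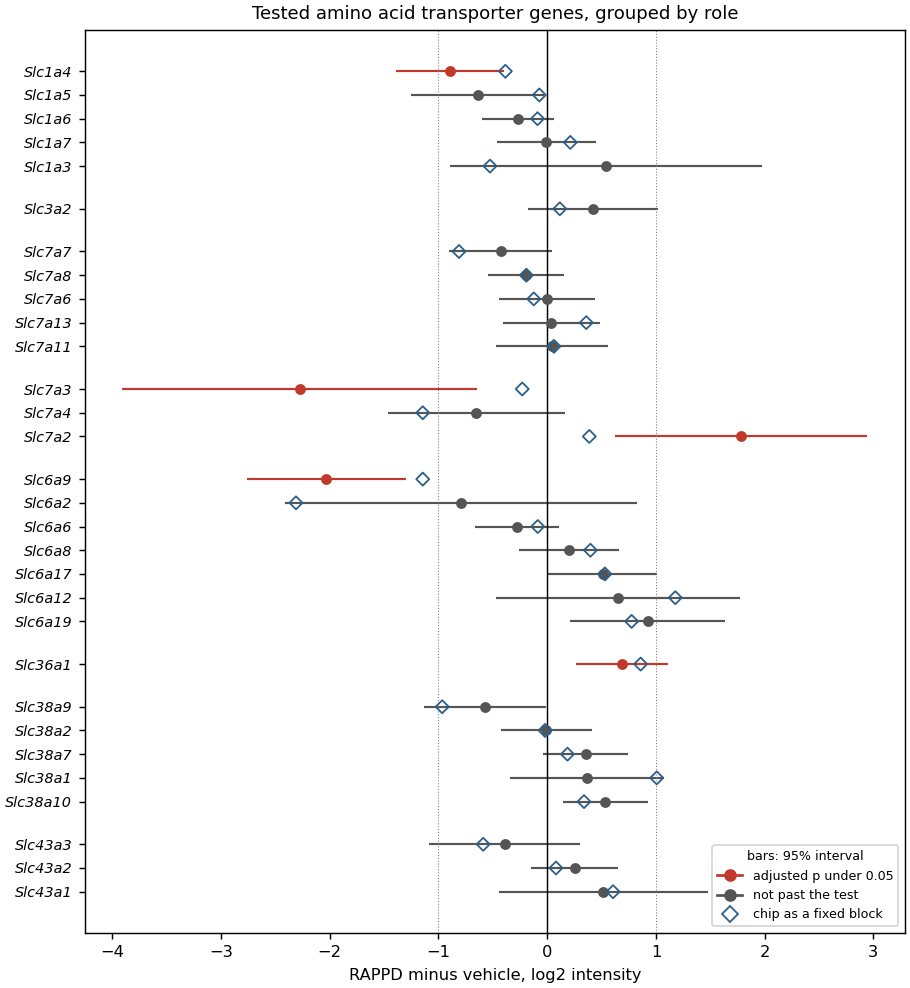
RAPPD minus vehicle difference in log2 intensity for each of the 30 tested transporter genes, grouped from top to bottom as Slc1, Slc3, Slc7 light chains, cationic Slc7, Slc6, Slc36, Slc38 and Slc43. Dots carry 95% intervals from limma, red marks an adjusted p under 0.05, and open diamonds give the difference in the chip-block fit. The diamonds of Slc7a3 and Slc7a2 lie near 0, while that of Slc6a9 stays below -1.

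Among the other Slc1 genes none was called. Slc1a5 encodes ASCT2, the exchanger through which many tumour cells take up glutamine. It stood at 5.08, 4.75, 5.22 and 5.48 in RAPPD 1 to 4, against 6.23, 5.86 and 5.20 in vehicle 1 to 3, close to the detection limit of 4.92 to 5.01. Its difference was -0.64 ± 0.27 (adjusted p = 0.120), its other probe past the filter gave -0.69, and the chip-block fit gave -0.07 (adjusted p = 0.891). Of 17 other settings it was called in 1, without vehicle 3 (-0.92, adjusted p = 0.0263).

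The glutamate carriers Slc1a3, Slc1a6 and Slc1a7, best known from glia, cerebellum and retina, had differences of 0.54, -0.27 and -0.01 (adjusted p 0.212 to 0.978). Slc1a6 was the one of these whose groups did not overlap, at 5.67 to 5.77 in RAPPD tumours and 5.81 to 6.09 in vehicle tumours. Slc1a3 ranged over 5.75 to 7.77 in RAPPD tumours and 4.50 to 6.95 in vehicle tumours, so its spread within each group exceeded the difference.

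Slc3a2 encodes the CD98 heavy chain, which carries several Slc7 light chains to the cell surface. Its single probe here was near the detection limit, at 5.53, 5.48, 5.62 and 4.72 in RAPPD 1 to 4, against 4.52, 5.00 and 5.22 in vehicle 1 to 3. It was detected on 3 of 4 RAPPD arrays and 2 of 3 vehicle arrays, and the difference of 0.42 ± 0.26 did not pass the test (adjusted p = 0.275).

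None of the 5 tested light chains was called by its brightest probe, with 2 differences above and 3 below 0. No probe was matched to the light chain gene Slc7a5, so it was not examined. Slc7a11 encodes xCT, which imports cystine in exchange for glutamate and so supplies glutathione synthesis. Its brightest probe stood at 9.27, 9.11, 10.03 and 9.28 in RAPPD 1 to 4, against 9.39, 9.38 and 9.36 in vehicle 1 to 3. The difference was 0.04 ± 0.23 (adjusted p = 0.910), with a 95% interval of -0.47 to 0.56.

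The other probes of Slc7a11 did not follow the brightest. A dimmer one stood at 6.71, 6.63, 7.71 and 6.65 in RAPPD tumours, against 4.75, 5.32 and 5.99 in vehicle tumours, without overlap. In a fit to all 21249 probes past the filter it was higher by 1.57 ± 0.35 (adjusted p = 0.0118), and the third probe by 0.73 ± 0.24 (adjusted p = 0.0601). The platform annotation ties the probe that rose most to a different transcript record, while the third probe shares the record of the brightest. With the mean of its probes past the filter the gene was called higher (0.78, adjusted p = 0.0461). The array therefore does not settle how Slc7a11 differed.

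Slc7a7 and Slc7a6, which exchange cationic for neutral amino acids, had differences of -0.43 ± 0.21 (adjusted p = 0.172) and -0.01 ± 0.19. Slc7a8, a carrier of large neutral amino acids, differed by -0.19 ± 0.15 (adjusted p = 0.395), and its other probe by 0.20. Slc7a13, known from the kidney, differed by 0.04, and Slc7a4, a relative of the cationic carriers, by -0.65 ± 0.36 (adjusted p = 0.223).

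The Slc6 family couples uptake to sodium and chloride, and of 7 tested genes Slc6a9 alone was called. The taurine carrier Slc6a6 stood at 14.31, 14.57, 14.18 and 14.36 in RAPPD 1 to 4, against 14.88, 14.58 and 14.44 in vehicle 1 to 3. The difference was -0.28 ± 0.17 (adjusted p = 0.270). The creatine carrier Slc6a8 differed by 0.20 ± 0.20 (adjusted p = 0.504). For both, the 95% interval lay within 1 log2 unit of 0.

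Carriers known from nerve, kidney and gut were dim and variable. Slc6a19, the neutral amino acid carrier of kidney and gut, was detected on all 4 RAPPD arrays and on none of the vehicle arrays, at 5.26, 5.16, 6.50 and 5.90 in RAPPD tumours against 4.60, 4.82 and 4.93 in vehicle tumours. It was at least 1.66-fold higher, a bound set by the detection limit, and did not pass the test (adjusted p = 0.0640). Slc6a17, a vesicle carrier of neurons, was detected on 3 RAPPD arrays and no vehicle array, with a bound of at least 1.09-fold higher (adjusted p = 0.128). Slc6a19 and Slc6a17 passed the filter only through RAPPD arrays, so their differences are not used as evidence. The noradrenaline carrier Slc6a2 differed by -0.79 ± 0.71, with 4.82 to 7.22 in RAPPD tumours and 5.83 to 8.22 in vehicle tumours. The betaine and GABA carrier Slc6a12 differed by 0.65 ± 0.49 (adjusted p = 0.372).

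None of the 5 tested Slc38 genes was called by its brightest probe. Slc38a2 encodes SNAT2, a sodium-coupled importer of small neutral amino acids whose level is known to rise in amino acid starvation. It stood at 11.63, 11.81, 12.15 and 12.03 in RAPPD 1 to 4, against 12.12, 11.70 and 11.92 in vehicle 1 to 3. The groups overlapped almost fully, with a difference of -0.01 ± 0.18 (adjusted p = 0.977) and a 95% interval of -0.43 to 0.41. Its close relative Slc38a1 differed by 0.37 ± 0.31 (adjusted p = 0.424).

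Slc38a10, a carrier with few known roles, came closest to the threshold. It stood at 8.50, 8.93, 8.70 and 8.77 in RAPPD 1 to 4, against 8.22, 7.96 and 8.39 in vehicle 1 to 3, without overlap. The difference was 0.53 ± 0.17 (adjusted p = 0.0529), and the other 2 probes past the filter were higher by 0.86 ± 0.21 and 0.71 ± 0.22 in the fit to all probes (adjusted p = 0.0165 and 0.0464). The gene was called in 7 of 18 other settings, such as with the mean of the probes (0.70, adjusted p = 0.0193). In the chip-block fit, which rests on 1 vehicle array, its difference was smaller, at 0.34.

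The lysosomal carriers Slc38a7 and Slc38a9 are known for glutamine export and for reporting arginine to mTORC1. Slc38a7 differed by 0.35 ± 0.17 (adjusted p = 0.174). Slc38a9 differed by -0.57 ± 0.25 by its brightest probe (adjusted p = 0.129), while its other probes gave 0.51 and -0.48, so its direction depends on the probe.

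Slc43a1 and Slc43a2 let branched-chain and other large neutral amino acids pass without sodium, and Slc43a3 carries nucleobases. Their differences were 0.51 ± 0.42, 0.25 ± 0.18 and -0.39 ± 0.31 (adjusted p 0.326 to 0.410), within the spread between tumours.

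**Figure D3:**
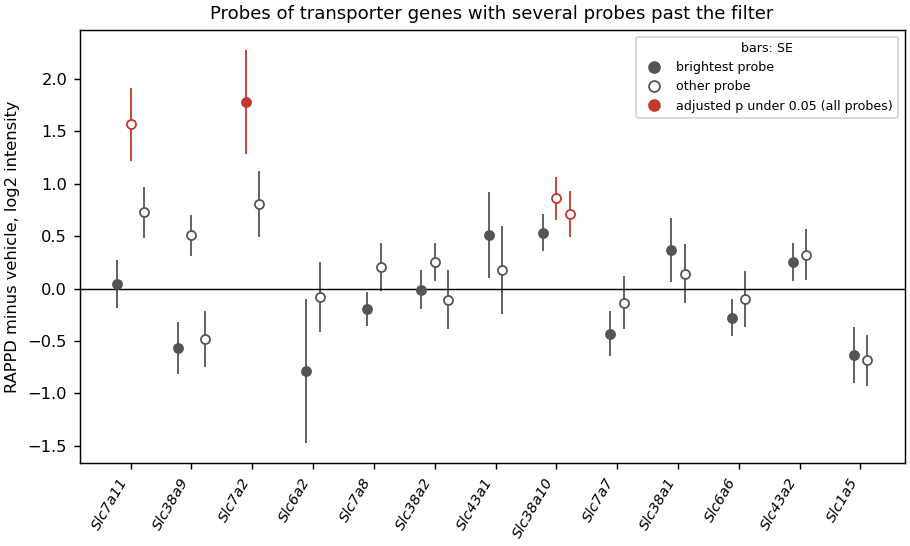
RAPPD minus vehicle difference in log2 intensity, with SE, for each probe of the 13 transporter genes with several probes past the filter, ordered by the range between probes. Filled dots are the brightest probe, open dots the others, and red marks an adjusted p under 0.05 over all probes. The probes of Slc7a11 are 1.53 apart and those of Slc38a9 lie on both sides of 0.

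Over these 13 genes, the probes of 10 pointed one way and those of 3 (Slc38a2, Slc38a9 and Slc7a8) pointed both ways. In the fit to each probe, 3 of the 47 transporter probes were lower and 5 higher, where 11% and 10.9% of all probes were called. Of the 25 tested genes that were not called, 13 had a 95% interval within 1 log2 unit of 0 on both sides. For the other 12 a 2-fold difference lay inside the interval, so these tumours do not settle whether they differ by that much.

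The remaining 25 genes had no probe past the filter and were not tested, and 13 of them were not above background on any array. They were Slc1a1 and Slc1a2, Slc36a2 and Slc36a3, and Slc38a3, Slc38a4, Slc38a5, Slc38a8 and Slc38a11. From Slc6 they were Slc6a3, Slc6a4, Slc6a5, Slc6a7, Slc6a11, Slc6a13, Slc6a14, Slc6a15, Slc6a18 and Slc6a21. From Slc7 they were Slc7a1, Slc7a9, Slc7a10, Slc7a12, Slc7a14 and Slc7a15. Several of these are known mainly from brain, kidney or gut, such as the serotonin carrier Slc6a4 and the cystine carrier Slc7a9. The cationic carrier Slc7a1, found in many cell types, had 2 probes, neither above background on more than 1 array.

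The transporters were set beside genes of amino acid response and sensing. Of 17 tested genes of ATF4 and the amino acid response, 11 were called lower and 2 higher, against 13.1% and 11% of all genes. Their median difference was -1.32, against 0.02 over the transporters. The 3 with the smallest p were the serine synthesis enzyme Psat1, the mitochondrial one-carbon enzyme Mthfd2 and the proline synthesis enzyme Aldh18a1. Psat1 stood at 8.09, 7.85, 7.48 and 7.45 in RAPPD 1 to 4, against 11.19, 10.97 and 10.68 in vehicle 1 to 3. The groups were far apart, by -3.23 ± 0.21 (adjusted p = 2.91e-05), and Mthfd2 and Aldh18a1 differed by -3.40 ± 0.30 and -1.61 ± 0.17. In the chip-block fit, which rests on 1 vehicle array, the median over the list was -0.85, against -0.02 over all genes. Of the 3 transporters named above as driven by ATF4, Slc1a4 was called lower. Slc7a11, by its brightest probe, and Slc3a2 were not called. With the mean of its probes Slc7a11 was called higher (0.78, adjusted p = 0.0461). The 3 are examples and not a full list of carriers driven by ATF4, so they give no share of such carriers. Whether these 3 differ from each other was not tested.

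Vehicle 3 stood between the mean of the other vehicle tumours and the RAPPD mean for 4 of the 5 called transporters, within the RAPPD values for Slc7a3 and Slc7a2 and outside them for Slc6a9 and Slc1a4. The same was true of 11 of the 13 called genes of the ATF4 list, against 58.3% of all 2671 called genes. Trib3 and Chac1, named after their values were seen, show it. Trib3, an ATF4 target that feeds back on it, averaged 7.12 in RAPPD tumours, against 11.19, 10.89 and 8.71 in vehicle 1 to 3. Chac1, an ATF4 target that degrades glutathione, averaged 6.84 in RAPPD tumours, against 10.43, 10.90 and 8.66 in vehicle 1 to 3. Each vehicle tumour was the only vehicle tumour on its chip, so whether chip or tumour sets vehicle 3 apart cannot be told from these arrays.

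Among 23 tested genes that sense amino acids at the lysosome, 4 were called higher and 0 lower, against 11% and 13.1% of all genes. In either direction this is a smaller share than the 24.1% of all genes, and the median was -0.09. All 4 lost their call in the chip-block fit. The mTORC1 anchor Lamtor1 rose by 0.84 ± 0.14 (adjusted p = 0.00426), and Fnip2, a folliculin partner, by 1.46 ± 0.28 (adjusted p = 0.00661). In the chip-block fit their differences were 0.72 and 1.22 (adjusted p = 0.0624 and 0.139). The GTPase gene Rragd, counted among the 4, passed the filter only through 3 RAPPD arrays and was not above background on any vehicle array, so its call is not used as evidence. It was at least 1.22-fold higher, and with the submitters' processed values it differed by 0.0749 (adjusted p = 0.210).

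Of 14 tested carriers of amino acids and peptides outside the chosen families, 3 were called higher and 1 lower, a share near the 24.1% of all genes called in either direction. Slc16a10, which lets aromatic amino acids pass, stood at 5.39, 5.80, 5.38 and 5.67 in RAPPD 1 to 4, against 6.56, 6.59 and 6.43 in vehicle 1 to 3. Its difference was -0.97 ± 0.16 (adjusted p = 0.00399). With the mean of its probes past the filter it was smaller, at -0.54 (adjusted p = 0.0399), and with the submitters' processed values it was -0.16. The lysosomal peptide carrier Slc15a3, known from immune cells, rose by 1.65 ± 0.31 (adjusted p = 0.00605). Slc32a1, the vesicular GABA carrier, passed the filter only through the RAPPD arrays and was not above background on any vehicle array, so its call is not used as evidence. It was at least 3.73-fold higher. In the chip-block fit, which rests on 1 vehicle array, Slc16a10 and Slc15a3 lost their calls, at -0.87 and 1.13. Slc17a5, the other called carrier, is named after its values were seen. It rose by 0.70 ± 0.18 (adjusted p = 0.0222), and its difference in the chip-block fit was 0.90.

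**Figure D4:**
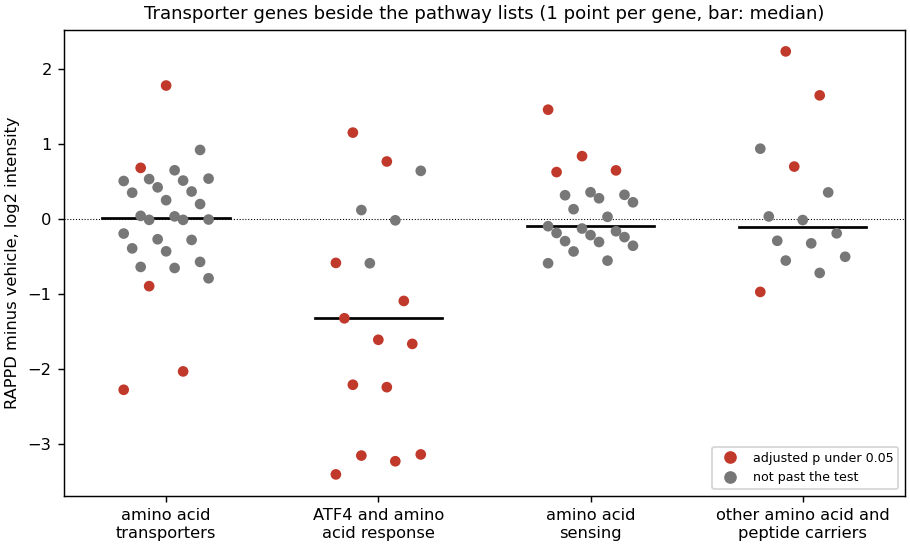
RAPPD minus vehicle difference in log2 intensity of the 30 tested transporter genes, of 17 genes of ATF4 and the amino acid response, of 23 amino acid sensing genes and of 14 other carriers, with 1 point per gene, a bar at the median and red for an adjusted p under 0.05. The transporters centre near 0, and the ATF4 list has its median at -1.32.

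Marker RNA of several cell types differed between the groups along with the transporters. Neutrophil markers rose for 11 of the 14 tested, where 11% of all genes were called higher. Their summed intensity was 47465 to 116721 in RAPPD tumours, against 6777 to 26833 in vehicle tumours, where vehicle 3 was highest. Ngp, counted among the 11, passed the filter only through the RAPPD arrays and was not above background on any vehicle array. Its call is therefore not used as evidence. All 5 tested red blood cell markers rose, with summed intensities of 77500 to 168306 in RAPPD tumours, against 15955 to 32022 in vehicle tumours. Of the 4 tested luminal markers, Krt8 and Krt18 were called lower, where 13.1% of all genes were. Krt19 differed by -1.81 ± 1.21 with overlapping groups (adjusted p = 0.310), and by 1.22 in the chip-block fit. Cdh1 differed by 0.05 ± 0.32 (adjusted p = 0.922). The 4 summed to 3318 to 10391 in RAPPD tumours, against 17554 to 28749 in vehicle tumours, a sum weighted to the brightest probe, that of Krt8. Epcam and Hoxb13 did not pass the filter in these tumours labelled as prostate. Krt8, Krt18 and Krt19 were detected on all 7 arrays. Macrophage markers summed to 13276 to 21075 in RAPPD and 13325 to 20954 in vehicle tumours, with 1 of 9 called, lower. Fibroblast markers summed to 27208 to 62734 in RAPPD and 17898 to 39201 in vehicle tumours, with 3 of 10 called, each higher. Endothelial markers summed to 1803 to 3186 in RAPPD and 2137 to 2763 in vehicle tumours, with 2 of 8 called, each lower. Of all genes, 24.1% were called in either direction, and the macrophage and endothelial counts do not stand out from that share. The 3 higher of 10 fibroblast markers compare with 11% of all genes called higher, and 8 of the 10 had a difference above 0. Basal markers summed to 76 to 1718 in RAPPD and 181 to 1345 in vehicle tumours, with Krt5 and Trp63 not past the filter. None of the 6 tested muscle markers was called. In the chip-block fit 2 neutrophil and 3 red blood cell markers were called higher and 1 endothelial marker lower. The fibroblast, macrophage and luminal calls were lost in that fit, with Krt8 at an adjusted p of 0.0512 and Krt18 at 0.120. Without vehicle 2, Slc6a9 differed by -1.76 (adjusted p = 0.0111), Slc1a4 by -0.76 (adjusted p = 0.0635), Slc7a3 by -1.81 (adjusted p = 0.152), Slc7a2 by 1.26 (adjusted p = 0.101) and Slc36a1 by 0.79 (adjusted p = 0.0356). In whole tumours fewer cells of a type and less RNA per cell cannot be told apart, and the part of these marker differences in the transporter values was not tested.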

How the data were processed

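RNA from 7 tumours was hybridised to Illumina bead arrays. Intensities were deposited on a linear scale with background subtracted, 1 per probe and array, and 28.8% to 30.3% of them per array were negative. The file holds neither detection p-values nor controls. The submitters' processing notes name BeadStudio and lumi, whose roles and versions are not given in the sources used here. The deposited processed values, on a log2-like scale with array medians of 8.021 to 8.025, followed the order of each array's intensities (rank correlation at least 0.99999). Their transform and centring stay unknown, and they served as an alternative.

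Since neqc needs control values, normexp was applied with the background mean at 0 and its SD from the negative intensities (8.41 to 9.35). After an offset of 16, quantile normalisation and log2 followed. Between 20323 and 21330 probes were detected per array, and precision is limited by the number of tumours. Probes were named by the platform annotation (34776 with 1 symbol, 18 with several, 10334 unnamed), and 99.78% of the named probes matched RefSeq by Entrez ID. A gene was represented by its brightest probe past the filter (11085 genes). RAPPD was compared with vehicle by limma 3.58.1 in R 4.3.3, two-sided, and chip as a random block used statmod 1.5.0. The fit was checked on simulated data. Alternatives changed the offset, background correction, scaling, filter, probe rule and chip term, or left out 1 array.

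A gene not detected in its lower group has a bound, from the mean of its higher group and the detection limit. The labels name no separate donors, so p-values reflect only the variation among these 7 samples, which may be technical. Every tested transporter is named, with up to 3 called genes of smallest p per pathway list. Trib3, Chac1 and Slc17a5 were added after their values were seen. The transporters and lists were chosen with earlier results of these data known. Replicate numbers are accession order only and pair no samples.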

Additional observations from a re-analysis of the deposited data

Results flagged for a closer look

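In the RAPPD group, 3 of 39 named genes had 1 array far from the other 3 (chance flags about 1 group in 20), and vehicle groups were too small for this check. Slc7a3 stood at 7.05 in RAPPD 1, against 5.79 to 5.86 in the other RAPPD tumours. Slc3a2 stood at 4.72 in RAPPD 4, against 5.48 to 5.62, and Slc7a6 at 4.96 in RAPPD 1, against 5.47 to 5.55. Slc3a2 and Slc7a6 lie near the detection limit on all arrays.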

How the results depend on the processing

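Of the 5 called transporters, Slc6a9 passed the test in all 18 other settings, from -2.47 to -1.13, with the chip-block fit among them. Slc1a4 passed in 12, Slc36a1 in 11, Slc7a2 in 9 and Slc7a3 in 6, each with its direction kept in all 18. Slc38a10, not called in the main fit, passed in 7 of the 18. The count of 3 lower and 2 higher transporters became 1 and 0 with chip as a fixed block and 1 and 1 with chip as a random block. Higher transporters numbered 1 with the submitters' processed values, 1 with no filter, 4 with the mean of a gene's probes and 5 with each probe as a feature. Leaving out each array gave 1 to 4 lower and 0 to 5 higher by limma (3 to 6 higher at an unadjusted p under 0.05). Over all genes, 1457 lower and 1214 higher became 659 and 379 with chip as a fixed block, 2347 and 2325 over single probes, and 961 to 1558 and 755 to 1292 when each array was left out. The median transporter difference ran from -0.03 to 0.14 and moved by less than the spread between arrays in each setting.

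Directions turned for 7 transporters that were not called. Slc38a2 was 0.0034 with median scaling, 0.0247 with cyclic loess, 0.0123 with the submitters' values and 0.0463 with the mean of probes. The mean of probes gave Slc7a8 0.0057, and no background correction gave Slc7a6 0.0051. Chip as a fixed block gave Slc1a3 -0.53 and Slc1a7 0.21, and as a random block Slc1a7 0.0638. Leaving out each array gave -0.12 to 0.0914 for Slc38a2, -0.12 to 0.13 for Slc7a6, -0.16 to 0.15 for Slc7a11, -0.12 to 0.16 for Slc7a13, -0.12 to 0.14 for Slc1a7 and -0.15 to 1.07 for Slc1a3. The chip fit rests on 1 vehicle array, and the cause of the other changes was not tested. Dim transporters are limited by the detection limit.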
